A study of Mus musculus with 6 samples.

Results

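The genes described here are 10 genes of MHC class I antigen presentation: the heavy chains H2-K1, H2-D1 and H2-T23, the light chain B2m, the peptide transporter subunits Tap1 and Tap2, the loading factors Tapbp and Tapbpl, the trimming peptidase Erap1 and the regulator Nlrc5. They were listed by name, and a probe set was taken as theirs where the array annotation gave 1 of these genes alone. That gave 27 of the 45101 probe sets, for 9 of the 10 genes. The probe sets of H2-T23 also name the pseudogene H2-T-ps, so H2-T23 is described apart, among 12 probe sets that name several class I genes. The measurements come from As4.1 cells, a mouse line of renin-expressing kidney tumour origin, treated with vehicle, with hydrogen peroxide, or with an interleukin that the labels do not name further. Per the design text of the series, each group held 2 separate cultures, with 1 Affymetrix mouse genome array each, 6 arrays in all, and neither doses nor times are given in the labels. All groups are the same line with no genetic difference between them, and treatment is the one difference that the labels give. Differences in culture, RNA integrity or array handling that go with the group cannot be told apart from treatment here.

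MHC class I molecules carry short peptides from inside the cell to its surface, where cytotoxic T cells and natural killer cells read them. The heavy chain pairs with beta-2-microglobulin in the endoplasmic reticulum, the Tap1-Tap2 transporter brings in peptides cut by the proteasome, Erap1 trims them, and tapasin (Tapbp) holds the empty molecule at the transporter until a fitting peptide binds. The genes are expressed in most cell types and are classical targets of interferons and of NF-kappaB, with Nlrc5 acting as a coactivator at their promoters.

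Promoters from RefSeq (build GRCm38.p6) were found for 7 of the 10 genes, with 2 annotated starts for H2-K1, each reaching from 250 bases before to 50 bases after the annotated start. Tap2, Tapbpl and Nlrc5 were not matched. The 5 genes shown are those whose window holds a match to an interferon-type or a kappaB-type motif. The capitals mark those matches, read 5′ to 3′ on the strand of the gene, and for H2-K1 the first of its annotated starts is shown.
H2-K1, chr17:34000298-34000597, minus strand: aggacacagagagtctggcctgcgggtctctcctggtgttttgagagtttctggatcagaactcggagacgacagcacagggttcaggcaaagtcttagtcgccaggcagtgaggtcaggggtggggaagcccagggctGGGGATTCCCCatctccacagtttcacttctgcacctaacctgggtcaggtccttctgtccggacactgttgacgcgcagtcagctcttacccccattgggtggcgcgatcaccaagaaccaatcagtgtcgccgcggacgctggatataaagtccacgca
H2-D1, chr17:35262844-35263143, plus strand: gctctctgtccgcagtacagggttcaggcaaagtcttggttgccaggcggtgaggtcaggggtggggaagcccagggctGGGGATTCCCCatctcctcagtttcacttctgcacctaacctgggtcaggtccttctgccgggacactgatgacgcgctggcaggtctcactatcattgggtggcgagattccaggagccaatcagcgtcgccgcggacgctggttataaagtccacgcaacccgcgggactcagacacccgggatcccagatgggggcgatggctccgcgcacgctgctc
H2-T23, chr17:36032652-36032951, minus strand: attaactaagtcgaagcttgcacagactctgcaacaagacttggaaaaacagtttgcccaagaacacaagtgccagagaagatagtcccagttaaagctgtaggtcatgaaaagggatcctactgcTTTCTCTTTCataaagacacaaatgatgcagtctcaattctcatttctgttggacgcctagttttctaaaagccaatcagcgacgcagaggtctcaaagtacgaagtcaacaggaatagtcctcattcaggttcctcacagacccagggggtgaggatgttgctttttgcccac
B2m, chr2:122147437-122147736, plus strand: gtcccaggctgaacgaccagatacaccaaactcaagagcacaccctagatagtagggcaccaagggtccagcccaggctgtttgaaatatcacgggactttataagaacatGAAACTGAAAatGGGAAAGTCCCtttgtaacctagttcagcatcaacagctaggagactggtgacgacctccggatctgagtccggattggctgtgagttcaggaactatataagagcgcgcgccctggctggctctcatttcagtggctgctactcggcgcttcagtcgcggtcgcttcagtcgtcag
Erap1, chr13:74639603-74639902, plus strand: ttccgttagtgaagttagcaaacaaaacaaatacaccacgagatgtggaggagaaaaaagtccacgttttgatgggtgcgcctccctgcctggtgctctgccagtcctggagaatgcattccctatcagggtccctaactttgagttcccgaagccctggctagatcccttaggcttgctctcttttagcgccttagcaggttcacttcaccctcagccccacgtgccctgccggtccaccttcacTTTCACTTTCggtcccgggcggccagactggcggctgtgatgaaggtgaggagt

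The motifs were searched on both strands. The core of the interferon-stimulated response element (GAAA, any 2 bases, GAAA) was found in the windows of H2-T23, B2m and Erap1, and in 3.44% of all 32851 windows. A kappaB-type motif (GGGA, any 4 bases, CC) was found in both windows of H2-K1 and in those of H2-D1 and B2m, and in 20.7% of all windows. In each of these windows the kappaB-type match occurs on both strands, shifted by 1 base, so the matches overlap. The CCAAT box was found in 7 of the 8 windows of these genes and in 37.4% of all, and the GAS motif (TTCNNNGAA) in 0 of the 8 and in 8.3% of all. The H2-K1 and H2-D1 windows share an identical run of 47 bases, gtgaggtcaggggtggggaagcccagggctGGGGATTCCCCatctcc, which starts at position -141 in H2-K1 and at position -201 in H2-D1. The 11 bases in capitals in that run, a search chosen after these windows had been read, occur in 10 of all windows (0.0304%). These 10 include both H2-K1 windows and the H2-D1 window, from which the letters were taken. In the B2m window the interferon-type match lies just upstream of the kappaB-type match. A match is a description of letters, and no binding was measured. The patterns ask for exact letters, so looser forms of an element go unmarked. That H2-K1 and H2-D1 gave no interferon-type match does not show that they lack such an element. The H2-K1 windows overlap each other and count as 1 stretch of sequence.

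**Figure D1:**
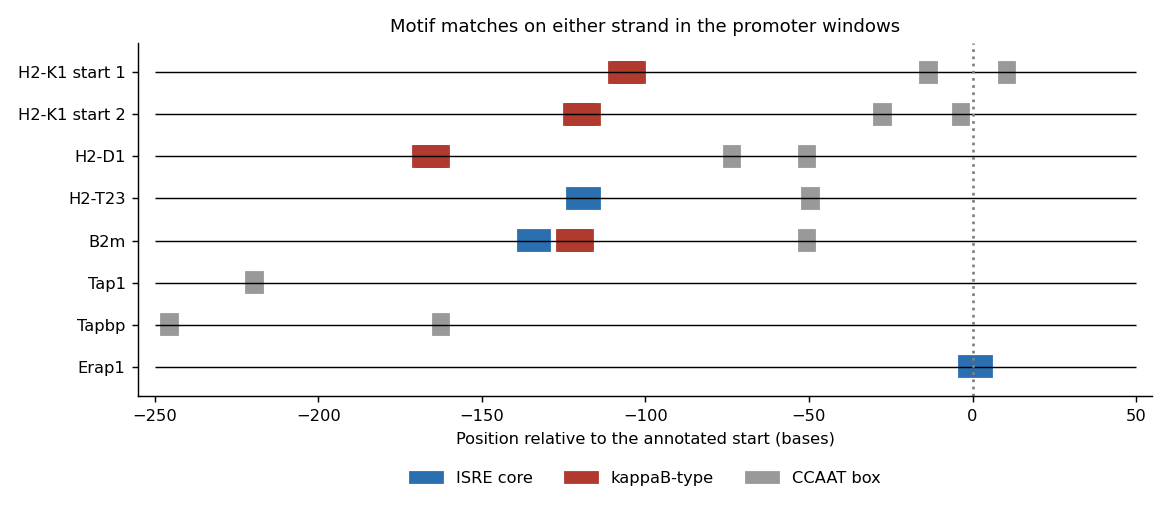
Positions of motif matches (blue, interferon-stimulated response element core; red, kappaB-type; grey, CCAAT box) in the 8 promoter windows of 7 genes, with the distance from the annotated start in bases on the x axis. The kappaB-type match of H2-K1 and H2-D1 lies upstream of paired CCAAT boxes. By these exact patterns, B2m is the window with both an interferon-type and a kappaB-type match.

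Signals are linear MAS5 values, 1 per probe set, and all arrays have a trimmed mean of 1500.01. Median signals lay between 192.2 and 232.3. The 22519 probe sets whose mean log2 signal was at or above the median of all were tested, which meant a geometric mean signal of at least 193.7, and 22 of the 27 probe sets of these genes passed. Their lowest single-array signal was 320.5, so none passed through a bright group alone. Differences were tested with limma over all 22519 probe sets, adjusted by Benjamini-Hochberg with a threshold of 0.05, and changes are in log2 units with the standard error (SE) of limma, n = 2 arrays per group. Interleukin array 2 had the highest lower quartile (69.2, no more than 54.1 elsewhere), and interleukin array 1 lay above interleukin array 2 in 21 of the 22 probe sets, against 11215 of all 22519. The 3' to 5' ratio of the beta-actin controls, a sign of RNA integrity, was 1.22 and 1.26 with vehicle, 1.32 and 1.35 with hydrogen peroxide, and 1.46 and 1.55 with interleukin. For Tfrc it was at most 2.14 with vehicle, 2.30 to 3.54 with hydrogen peroxide and 3.05 to 3.95 with interleukin. For Pcx it was at most 1.66 with vehicle and 2.03 to 2.89 on the treated arrays, and for Gapdh 0.825 to 0.873 on all. The part of these ratios in the results was not tested. Of 9 leukocyte markers on the array 7 were below the tested range, Ptprc at 21.3 to 125.7 among them. The 2 tested ones were not called in any comparison. Csf1r ranged from 417 to 636. Coro1a went from 409 and 410 under vehicle to 656 and 702 under hydrogen peroxide (0.73 ± 0.22, limma adjusted p = 0.0777). The summed signal of all 9 was 1413 to 1480 with vehicle, 1715 to 1738 with hydrogen peroxide and 1518 to 1851 with interleukin. Its part was not tested either. Of 6 endothelial markers 1 was tested, Kdr at 8069 to 15690, which fell under interleukin (-0.60 ± 0.15, limma adjusted p = 0.0194). Of 6 epithelial markers 1 was tested, Epcam at 310 to 648, which was not called. Of 4 tested smooth muscle and pericyte genes 3 rose with interleukin (limma), against 7.58% of all tested probe sets. The summed signal of the 6 on the array was 16751 to 17006 with vehicle and 18323 to 18948 with hydrogen peroxide. With interleukin this sum was 24572 to 32121, and its part was not tested. Renin was not analysed here, so the defining marker of the line was not checked, and in bulk RNA a change in all cells cannot be told apart from a change in some.

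With interleukin most of the listed class I genes were higher. Of the 22 tested probe sets 18 were called higher and 0 lower (limma; 20 higher and 0 lower at an unadjusted p under 0.05), where 7.58% of all tested probe sets were called higher and 8.52% lower. Their median log2 change was 0.63, against -0.02 over all tested probe sets. Both interleukin arrays lay above both vehicle arrays in 20 of the 22 and below them in 0, which was the case for 27.6% and 31.4% of all. Taking for each gene its brightest probe set, 8 of 9 genes rose and Erap1 did not pass. Without vehicle array 1, vehicle array 2 or interleukin array 1 the number called higher was 11, 10 and 11, and it was 10 with a variance model that had no trend on signal.

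Among the heavy chains, which bind the peptide, the brightest probe set of H2-D1 read 22550 and 23694 with vehicle, 29522 and 28265 with hydrogen peroxide, and 33468 and 32032 with interleukin. The 3 groups did not overlap. The rise under interleukin was 0.50 ± 0.08 (SE, limma adjusted p = 0.00143), or 1.42-fold, and it did not pass without the trend on signal (adjusted p = 0.0519, range 0.000873 to 0.0519 over 14 alternatives). The brightest probe set of H2-K1 read 23215 and 24775 with vehicle, 28580 and 27115 with hydrogen peroxide, and 33342 and 29042 with interleukin. Here too the groups were in separate ranges, and the rise under interleukin was 0.38 ± 0.09 (limma adjusted p = 0.0152). This call was lost without either vehicle array, without interleukin array 1 and without the trend on signal (adjusted p = 0.128, 0.0578, 0.0798 and 0.127).

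Probe sets of these heavy chains gave unequal sizes. Most can share probes with related class I genes, since 7 of the 9 H2-D1 and all 4 H2-K1 probe sets carry the suffix x, so they are neither independent nor strictly specific to 1 gene, and the H2 haplotype of the line is not given in the labels. The 8 tested H2-D1 probe sets changed by 0.35 to 0.79 under interleukin, 6 called higher and 2 not called. The one without the suffix x (1426324_at) read 2897 and 3012 with vehicle, 4481 and 4188 with hydrogen peroxide, and 4689 and 4636 with interleukin. It rose by 0.66 ± 0.11 under interleukin (limma adjusted p = 0.00279) and by 0.55 ± 0.11 under hydrogen peroxide (adjusted p = 0.0179). The 4 H2-K1 probe sets rose by 0.38 to 1.37 under interleukin. The dimmest of them, 1450534_x_at, read 356 and 321 with vehicle, 883 and 911 with hydrogen peroxide, and 1182 and 646 with interleukin, so its interleukin arrays lay on either side of the hydrogen peroxide arrays.

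B2m, the light chain shared by all class I molecules, read 39436 and 35185 with vehicle, 45443 and 43027 with hydrogen peroxide, and 61603 and 52977 with interleukin. The 3 groups were in separate ranges in that order. Under interleukin B2m rose by 0.62 ± 0.09 (limma adjusted p = 0.00121), or 1.53-fold, and a second probe set rose by 0.66 ± 0.07 (adjusted p = 0.000259). Without the trend on signal the first did not pass (adjusted p = 0.0516, range 0.000613 to 0.0516).

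The transporter subunits differed in size. Tap1 read 1804 and 1833 with vehicle, 2297 and 2047 with hydrogen peroxide, and 4418 and 3736 with interleukin. Its interleukin arrays stood far above the other 4, and the rise of 1.16 ± 0.14 over vehicle (limma adjusted p = 0.000326, 2.23-fold) passed under all 15 alternatives, with adjusted p between 0.000181 and 0.0138. Tap2 read 2792 and 2805 with vehicle, 3691 and 3582 with hydrogen peroxide, and 4303 and 4014 with interleukin. Its hydrogen peroxide arrays lay nearer to interleukin than to vehicle, and its rise under interleukin was 0.57 ± 0.11 (limma adjusted p = 0.00678), lost without vehicle array 1 or 2 (0.0585 and 0.0562). The difference in size between Tap1 and Tap2 was not tested.

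The loading factors behaved differently from each other. Tapbp, tapasin, read 27652 and 29208 with vehicle, 26918 and 23562 with hydrogen peroxide, and 37117 and 35252 with interleukin. It was the one gene whose hydrogen peroxide arrays lay below vehicle. Under interleukin it rose by 0.35 ± 0.09 (limma adjusted p = 0.0192), while a dimmer probe set (8222 and 9014 in vehicle cells, 9899 and 8078 after interleukin) overlapped and was not called (0.06 ± 0.12, adjusted p = 0.803). The call of the brighter one was lost without vehicle array 1 or 2, interleukin array 1, the filter on signal or the trend on signal (adjusted p 0.0595 to 0.145). Tapbpl, also known as TAPBPR, a tapasin relative that edits the bound peptides, read 1691 and 1384 with vehicle, 2457 and 2220 with hydrogen peroxide, and 2571 and 2204 with interleukin. Both treatments lay above vehicle and overlapped each other. Its rise under interleukin was 0.64 ± 0.15 (limma adjusted p = 0.0177), lost without vehicle array 2, interleukin array 1 or the trend on signal (0.157, 0.0910 and 0.0663).

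Erap1, the peptidase that trims peptides to the length class I binds, read 852 and 850 with vehicle, 980 and 986 with hydrogen peroxide, and 1356 and 1097 with interleukin by its brightest probe set. The groups did not overlap, but the interleukin arrays were far apart and the change of 0.52 ± 0.17 did not pass (limma adjusted p = 0.0647). Without interleukin array 2 it passed (0.67, adjusted p = 0.0477), which leaves a single interleukin array that is assumed to vary like the rest. The other Erap1 probe set read 321 and 342 with vehicle, 618 and 613 with hydrogen peroxide, and 932 and 622 with interleukin. It rose by 1.20 ± 0.24 under interleukin (limma adjusted p = 0.00792). Nlrc5, the coactivator of class I promoters, read 372 and 402 with vehicle, 514 and 652 with hydrogen peroxide, and 859 and 636 with interleukin. Both treatments lay above vehicle, and the rise under interleukin was 0.93 ± 0.24 (limma adjusted p = 0.0237), lost without vehicle array 1 or 2, interleukin array 1 or the filter on signal (0.131, 0.0939, 0.136 and 0.0560).

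**Figure D2:**
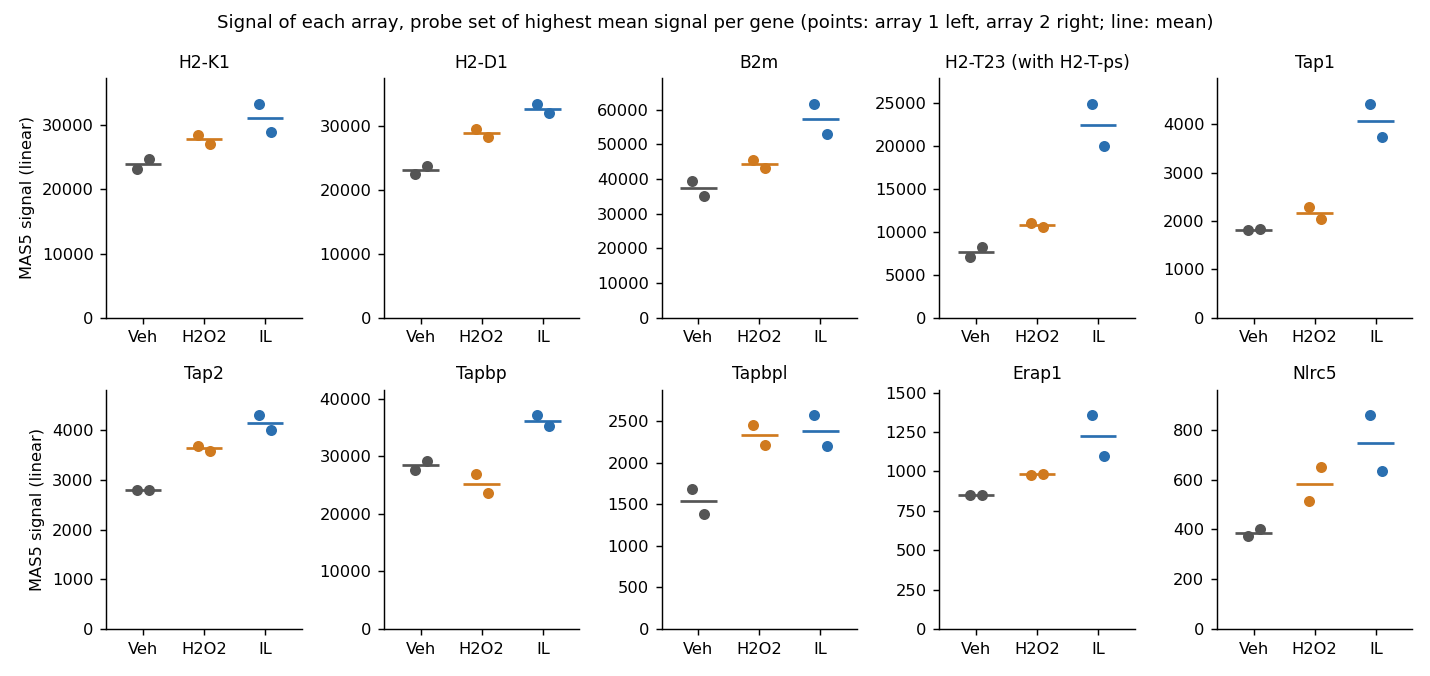
MAS5 signal (linear, y axes from 0 and separate for each gene) of the 6 arrays for the brightest probe set of each gene, with vehicle (Veh), hydrogen peroxide (H2O2) and interleukin (IL) on the x axis, points for arrays and lines for group means. Interleukin array 1 is the higher of its pair in every panel, Tap1 at 4418 and 3736 stands apart with interleukin, and Tapbp is lowest with hydrogen peroxide.

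Under hydrogen peroxide the same genes mostly lay above vehicle by less, and few changes passed. Of the 22 tested probe sets 8 were called higher and 1 lower, where 3.05% of all tested probe sets were called higher and 2.65% lower. Both hydrogen peroxide arrays lay above both vehicle arrays in 18 of the 22 and below them in 2, against 29.8% and 25.6% of all, and the median change was 0.34, against 0.02 over all. The count called higher rests on every array compared, since it was 1 without vehicle array 1, 1 without vehicle array 2, 1 without hydrogen peroxide array 1 and 2 without hydrogen peroxide array 2. It was 0 without the trend on signal, which left 57 calls over all probe sets.

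The probe sets called higher were those of heavy chains, B2m and Tapbpl. H2-K1 rose by 0.67 ± 0.08 in 1427746_x_at, with 13994 and 14041 for vehicle and 22092 and 22608 for hydrogen peroxide (limma adjusted p = 0.00141). It rose by 0.50 ± 0.09 in 1451931_x_at (adjusted p = 0.00983) and by 1.41 ± 0.27 in 1450534_x_at (adjusted p = 0.0158), whereas its brightest probe set was not called (0.22 ± 0.09, adjusted p = 0.176). H2-D1 rose in 3 of 8 probe sets, by 0.32 ± 0.08 in the brightest (limma adjusted p = 0.0340) and by up to 0.64. B2m rose in 1 of 2 probe sets, by 0.32 ± 0.07 (limma adjusted p = 0.0347). Tapbpl rose by 0.61 ± 0.15 (limma adjusted p = 0.0442). The calls of H2-D1 in its brightest probe set and of Tapbpl were lost without any 1 of the 4 arrays compared (adjusted p 0.0865 to 0.208 and 0.0912 to 0.301), with no filter or no trend on signal and after 75th percentile centring, and that of Tapbpl also after quantile normalization (0.0517).

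Tap1, Tap2, Erap1 and Nlrc5 were not called under hydrogen peroxide, with changes of 0.25 ± 0.14, 0.38 ± 0.11, 0.21 ± 0.17 and 0.58 ± 0.24 in their brightest probe sets and limma adjusted p of 0.305, 0.0777, 0.520 and 0.182. A p above the threshold does not show that they stayed level, and both hydrogen peroxide arrays lay above both vehicle arrays in all 4. Tapbp gave the 1 lower call, in its dimmer probe set, which read 8222 and 9014 with vehicle and 5808 and 6496 with hydrogen peroxide. That fall by 0.49 ± 0.12 (limma adjusted p = 0.0430) was lost without any 1 of the 4 arrays compared and without the filter or the trend on signal. The brighter Tapbp probe set was also below vehicle but not called (-0.17 ± 0.09, adjusted p = 0.258). Both comparisons use the same vehicle arrays, so their values stand side by side and are not independent of each other.

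**Figure D3:**
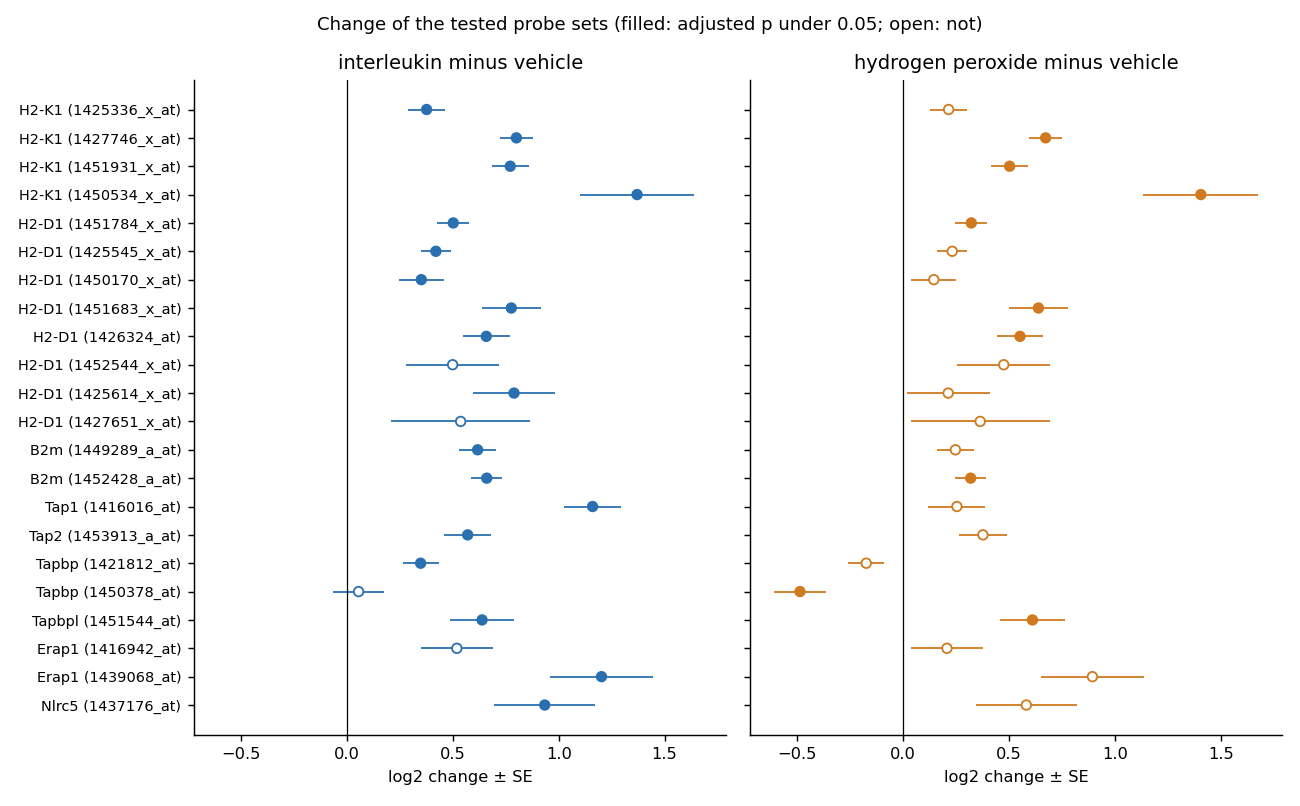
Log2 change ± SE (x axis) of the 22 tested probe sets for interleukin minus vehicle (left) and hydrogen peroxide minus vehicle (right), with filled points for limma adjusted p under 0.05. On the left 18 points are filled, all above 0, and on the right 8 are filled above 0 and 1, of Tapbp, below 0.

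Among the genes with probe sets of their own, Tap1, Tapbp and B2m were called in the direct comparison of the treatments. H2-T23 is described further on, and differences between genes were not tested. Of the 22 tested probe sets 5 were called higher with interleukin than with hydrogen peroxide and 0 lower (limma; 9 and 0 at an unadjusted p under 0.05), where 4.95% of all were called higher and 3.87% lower. Both interleukin arrays lay above both hydrogen peroxide arrays in 15 of the 22 and below them in 0, against 21.8% and 30% of all. Tap1 was higher with interleukin by 0.91 ± 0.14 (limma adjusted p = 0.00223, 1.87-fold), and this passed under all 15 alternatives (0.00106 to 0.0342). Tapbp was higher by 0.52 ± 0.09 and 0.54 ± 0.12 in its 2 probe sets (limma adjusted p = 0.00361 and 0.0195), and the first was lost without the trend on signal (0.0956). B2m was higher by 0.37 ± 0.09 and 0.34 ± 0.07 (limma adjusted p = 0.0277 and 0.0178), and the first was lost after quantile normalization (0.0691), without the filter (0.0939) or the trend (0.201) on signal, without hydrogen peroxide array 1 (0.0596) or 2 (0.170) and without interleukin array 1 (0.119). The count of 5 was 2 without hydrogen peroxide array 1, without hydrogen peroxide array 2 and without interleukin array 1, and 1 without the trend on signal.

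No probe set of H2-D1, H2-K1, Tap2, Tapbpl, Erap1 or Nlrc5 was called between the treatments. The 12 tested probe sets of H2-D1 and H2-K1 differed by -0.04 to 0.58. Tapbpl differed by 0.03 ± 0.15, and its sign turned without hydrogen peroxide array 2 or interleukin array 1. Nlrc5 differed by 0.35 ± 0.24 with overlapping arrays, as 1 hydrogen peroxide array (652) lay above 1 interleukin array (636).

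H2-T23 encodes Qa-1, a nonclassical heavy chain that presents leader peptides of other class I molecules to inhibitory receptors of natural killer cells. Its brighter probe set, which also names H2-T-ps (1449556_at), read 7076 and 8212 with vehicle, 11018 and 10574 with hydrogen peroxide, and 24881 and 19948 with interleukin. The groups were far apart in that order. It rose by 1.55 ± 0.12 under interleukin (limma adjusted p = 1.8e-05, 2.92-fold), above the change of every tested probe set that names 1 of the listed genes alone, and by 0.50 ± 0.12 under hydrogen peroxide (adjusted p = 0.0361). The hydrogen peroxide call was lost without the filter or the trend on signal and without any 1 of the 4 arrays compared (0.0894 to 0.226). The dimmer probe set (1419658_at) read 488 and 481 with vehicle, 1205 and 1348 with hydrogen peroxide, and 1359 and 1179 with interleukin. It rose by 1.39 ± 0.17 under interleukin and by 1.40 ± 0.17 under hydrogen peroxide (limma adjusted p = 0.000466 and 0.00212), so the probe sets give unequal pictures of hydrogen peroxide. Between the treatments the brighter one differed by 1.05 ± 0.12 (limma adjusted p = 0.000354) and the dimmer one by -0.01 ± 0.17 (adjusted p = 0.981).

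The other probe sets that name several class I genes followed a similar order. Of 12, 9 were tested. That of H2-Q5 and H2-K1 had dim vehicle signals (45.2 and 124.1), was tested only because its treated groups were brighter, and is left out of the count for interleukin. Of the other 8, 6 were called higher with interleukin (7.58% of all tested probe sets). With hydrogen peroxide 2 were called higher, both of them of H2-T23 (3.05% of all), and between the treatments 3 (4.95% of all). Group means rose from vehicle over hydrogen peroxide to interleukin in 8 of the 9, against 18.5% of all tested probe sets. The 8 include that of H2-Q5 and H2-K1, whose order cannot count, since it was tested only through its brighter treated groups. The probe set of H2-T9, H2-T22 and H2-T10, which include ligands of gamma-delta T cells, read 11542 and 11891 with vehicle, 15444 and 14233 with hydrogen peroxide, and 24905 and 20601 with interleukin (0.95 ± 0.10 under interleukin, limma adjusted p = 0.000194). That of H2-Q6 and H2-Q8, of the nonclassical Qa-2 region, read 2083 and 2150, 2388 and 2496, and 5119 and 3589 in the same order (1.02 ± 0.16, adjusted p = 0.00215). That of H2-Q9 and H2-Q7 rose by 0.88 ± 0.15 (limma adjusted p = 0.00277). The probe set that names both H2-K1 and H2-D1 was not called (0.52 ± 0.17, limma adjusted p = 0.0673).

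**Figure D4:**
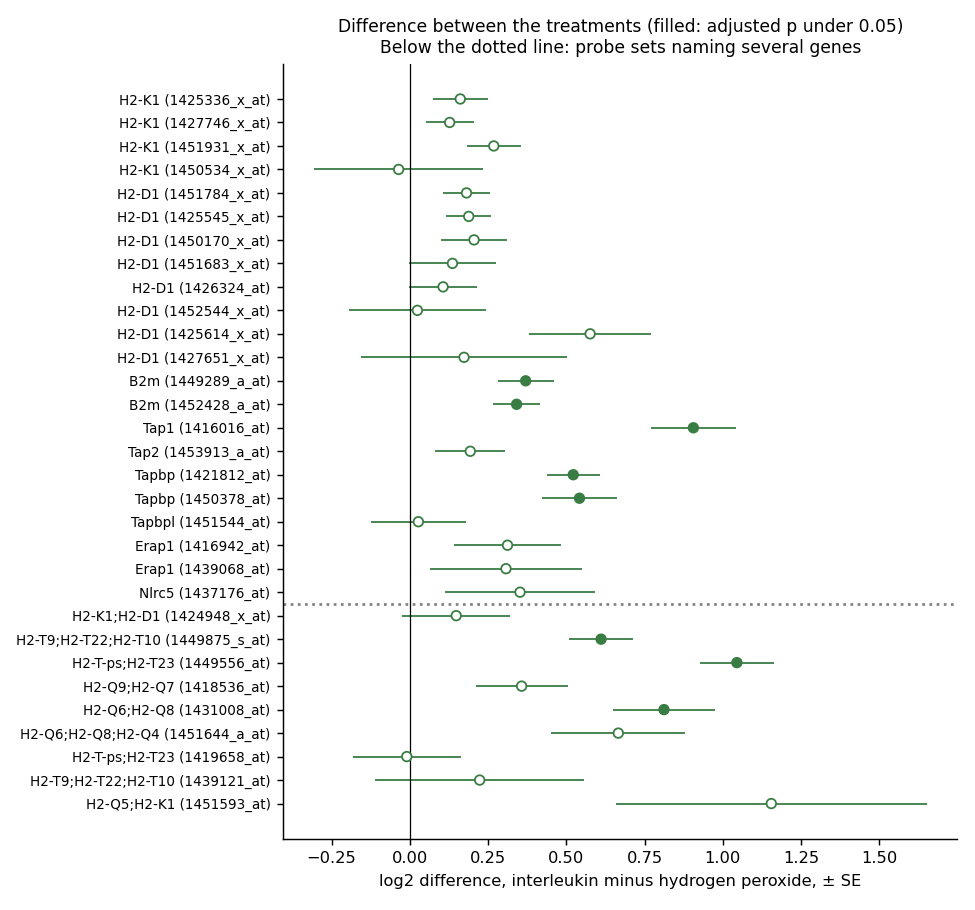
Log2 difference ± SE (x axis), interleukin minus hydrogen peroxide, of the 22 tested probe sets of single genes (above the dotted line) and the 9 tested probe sets that name several class I genes (below it), with filled points for limma adjusted p under 0.05. Filled points are those of B2m, Tap1 and Tapbp above the line and of 3 probe sets below it, all to the right of 0.

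Other class I and class I-like genes also have probe sets of their own. Of 10 tested, 3 rose with interleukin and 0 fell (median 0.25, limma), and 0 were called with hydrogen peroxide (median 0.34; 3 higher and 1 lower at an unadjusted p under 0.05). Shares called higher and lower over all tested probe sets were 7.58% and 8.52% with interleukin, and 3.05% and 2.65% with hydrogen peroxide. The 3 that rose were nonclassical H2 genes. H2-T24 read 312 and 443 under vehicle, rising to 1106 and 712 under interleukin (1.26 ± 0.28, limma adjusted p = 0.0124), H2-M3, which presents formylated peptides, rose by 0.65 ± 0.16 (adjusted p = 0.0206), and H2-Q5 by 0.83 ± 0.23 (adjusted p = 0.0373). The class I-like proteins Hfe, of iron sensing, Fcgrt, the neonatal Fc receptor, and Mr1, which presents vitamin metabolites, were not called in any comparison, with changes of 0.19, -0.11 and 0.19 under interleukin.

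The folding machinery of the endoplasmic reticulum that class I shares with other glycoproteins gave 0 of 10 calls under interleukin (limma; 1 higher and 0 lower at an unadjusted p under 0.05, median 0.04). Among all tested probe sets 7.58% were called higher and 8.52% lower, so 0 of 10 is near the general share. The lectin chaperones Calr and Canx changed by -0.05 ± 0.11 and -0.09 ± 0.08, and Pdia3, the oxidoreductase of the loading complex, by -0.003 ± 0.07. Under hydrogen peroxide 1 of 10 rose, the thiol oxidase Ero1a, where 3.05% of all tested probe sets were called higher. Ero1a read 3240 and 3412 with vehicle and 4867 and 6159 with hydrogen peroxide (0.72 ± 0.15, limma adjusted p = 0.0194).

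Of the peptide supply 3 of 12 genes rose under interleukin and 0 fell (limma, median 0.07), and 0 were called under hydrogen peroxide (1 higher and 0 lower at an unadjusted p under 0.05). Of all tested probe sets, 7.58% were called higher and 8.52% lower under interleukin, and 3.05% and 2.65% under hydrogen peroxide. The 3 that rose were the inducible proteasome subunits Psmb9 and Psmb8 and the proteasome activator Psme1. In the RefSeq order on chromosome 17, Psmb9, Tap1, Psmb8 and Tap2 are neighbours. Psmb9 read 2925 and 2783 with vehicle, 3399 and 2820 with hydrogen peroxide, and 6308 and 5048 with interleukin, a rise of 0.98 ± 0.14 under interleukin (limma adjusted p = 0.00125) and a difference of 0.87 between the treatments (adjusted p = 0.00400). Psmb8 read 5411 and 5487, 7129 and 6674, and 9439 and 9070 in that order, a rise of 0.76 ± 0.10 (limma adjusted p = 0.000529). For Psmb9, 1 hydrogen peroxide array lay within the range of vehicle and the other above it, while both of Psmb8 lay above it. Psme1 rose by 0.55 ± 0.14 (limma adjusted p = 0.0206), and the third inducible subunit, Psmb10, was not called (0.22 ± 0.15, adjusted p = 0.366).

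Among transcription factors that act at class I promoters 4 of 17 rose under interleukin and 0 fell (median 0.17). Under hydrogen peroxide 3 rose (median -0.04). Over all tested probe sets 7.58% were called higher and 8.52% lower under interleukin, and 3.05% higher under hydrogen peroxide. Irf7, an interferon regulatory factor, read 1919 and 2223 with vehicle, 4327 and 3237 with hydrogen peroxide, and 9651 and 8853 with interleukin, and rose in both comparisons (2.16 and 0.86, limma adjusted p = 1e-05 and 0.0101). Irf9, the DNA-binding subunit of the interferon-activated complex, read 1623 and 1518, 3514 and 3816, and 6171 and 4527, and also rose in both (1.75 and 1.22, adjusted p = 4.6e-05 and 0.00219). Stat2, its partner, and Relb, an NF-kappaB subunit, rose under interleukin by 1.13 ± 0.17 and 1.28 ± 0.17 (limma adjusted p = 0.00140 and 0.000601). Rfx5, the DNA-binding subunit of the complex that recruits Nlrc5, rose under hydrogen peroxide by 0.51 (limma adjusted p = 0.0424) and was not called under interleukin (0.20 ± 0.13, adjusted p = 0.319). Irf1 and Rela were not called in any comparison (0.17 ± 0.11 and -0.01 ± 0.10 under interleukin).

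Interferon receptors and kinases gave 2 genes risen and 1 fallen of 8 tested under interleukin (limma). Over all tested probe sets 7.58% were called higher and 8.52% lower. Under hydrogen peroxide 0 were called (0 higher and 1 lower at an unadjusted p under 0.05), against 3.05% higher and 2.65% lower of all. Ifnar2, a subunit of the type I interferon receptor, rose from 4641 and 5347 to 10675 and 8905 (0.97 ± 0.13, limma adjusted p = 0.000781), the kinase Jak2 rose by 0.65 ± 0.12 (adjusted p = 0.00493) and Jak1 fell by 0.40 ± 0.08 (adjusted p = 0.00951). The ligands Ifnb1, Ifng and Ifna4 were below the tested range, so their differences were not tested. Ifnb1 read 54.4 and 90.8 with vehicle, 96.4 and 56.2 with hydrogen peroxide, and 164.9 and 181.6 with interleukin. Ifng read 7.8 and 6.9, 66.9 and 55.6, and 36.0 and 9.9 in that order, highest with hydrogen peroxide. Ifna4 read 12.4 and 7.5, 35.6 and 14.4, and 8.5 and 112.2, with interleukin overlapping both other groups.

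MHC class II, which presents peptides from outside the cell and is usually restricted to professional antigen-presenting cells, was dim. Of 12 genes on the array 8 were below the tested range, among them its master regulator Ciita at 113.7 to 242.5. Of the 4 tested 0 were called under interleukin (limma; 2 higher and 0 lower at an unadjusted p under 0.05), and 1 was called higher under hydrogen peroxide, H2-Ab1, at 155 and 101 with vehicle and 468 and 319 with hydrogen peroxide. Its vehicle signals lay below the tested range, so it was tested only because its treated groups were brighter, and the call is given as a description only. Over all tested probe sets 7.58% were called higher under interleukin and 3.05% under hydrogen peroxide. The invariant chain Cd74 read 211 and 171 with vehicle, 348 and 328 with hydrogen peroxide, and 324 and 317 with interleukin, and was not called in any comparison. Its vehicle mean of 191 lay below the lowest mean signal tested (193.7), so Cd74 too was tested only through its brighter treated groups. The 2 genes higher under interleukin at an unadjusted p were H2-Ab1 and Cd74, so that count is also a description only.

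**Figure D5:**
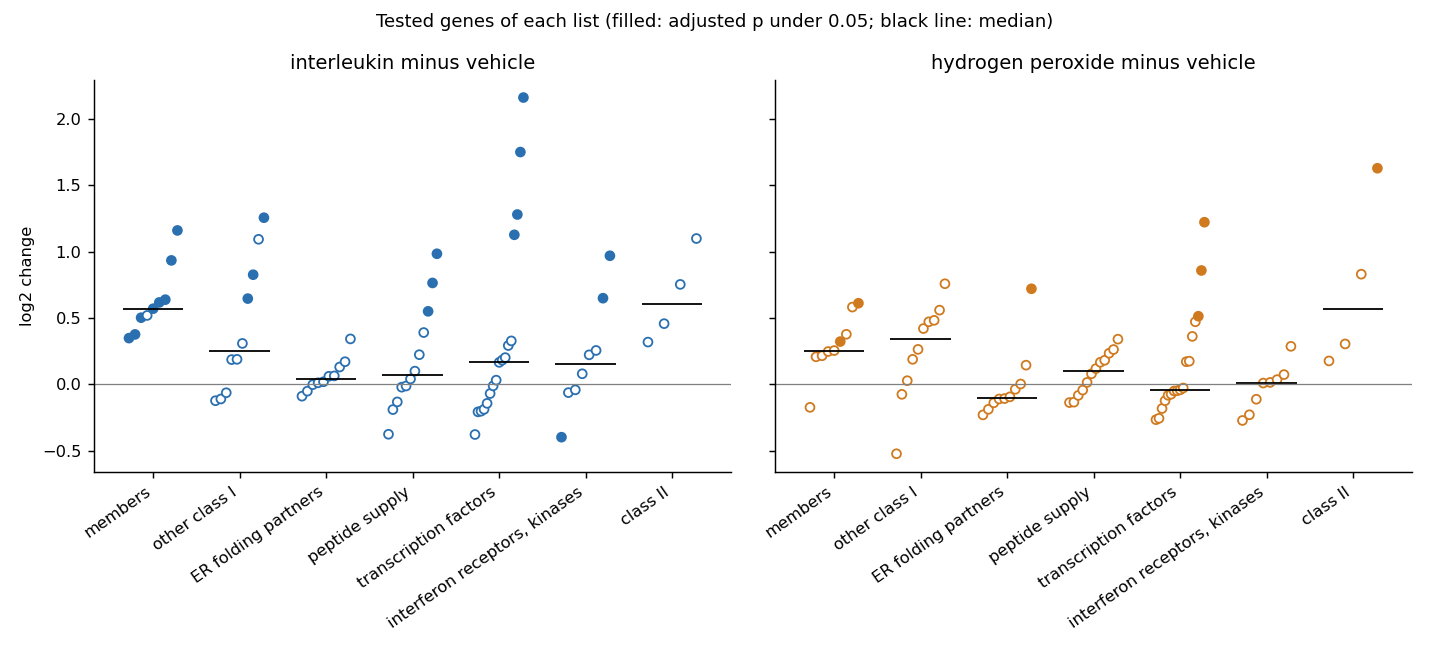
Log2 change (y axis) of the tested genes of each list, 1 point per gene, for interleukin minus vehicle (left) and hydrogen peroxide minus vehicle (right), with filled points for limma adjusted p under 0.05 and a black line at the median. The listed class I genes have a median of 0.57 on the left and 0.25 on the right, and the folding partners have medians of 0.04 and -0.10.

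The genes outside the list whose pattern was most like that of its 8 genes called under interleukin were sought among 10883 genes, by the root mean square difference of log2 signals over the 6 arrays after each gene was centred on its own mean. They were Supt3 (0.03), a subunit of a transcription coactivator complex, Limk1 (0.04), an actin-regulating kinase, Arhgap29 (0.05), Apcdd1 (0.05), a Wnt inhibitor, and Emc9 (0.05), of a membrane protein insertion complex. Supt3 read 936 and 984 with vehicle, 1211 and 1123 with hydrogen peroxide, and 1619 and 1394 with interleukin. The likeness is over 6 arrays of 3 groups that all genes share, and nothing follows from it on shared control.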

How the data were processed

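RNA of 2 cultures each of vehicle, hydrogen peroxide and interleukin treated As4.1 cells was measured on 6 Affymetrix arrays. The authors deposited 1 intensity for each probe set and array, computed with MAS5 per the submitters' processing notes, whose version the sources used here leave out. These values were log2 transformed with no pseudocount, and 64 control probe sets were left out. Gene symbols are those of the array annotation, brought up to date with RefSeq, which matched 34754 of 34958 probe sets with 1 symbol. The brightest probe set (highest mean of log2 signals) stands for a gene, with others beside it. Each adjusted p comes from limma 3.58.1 (R 4.3.3; linear models of the 6 arrays, empirical Bayes moderation with a signal trend) over 22519 probe sets, and the fit was checked on simulated data. The genes, lists and the rule for named genes (every member; up to 4 called genes of smallest p per list and comparison with vehicle; the 5 most similar patterns) were chosen with earlier results of these data known; other genes were named after their values were seen. The number of arrays limits the precision. Alternatives were quantile normalization, 75th percentile centring, a pseudocount of 32, no or a stricter filter, no trend, 4 arrays, a replicate block, no probe sets that can match several transcripts, and leaving out each array. Nothing in the sources used here dates or batches the arrays.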

Additional observations from a re-analysis of the deposited data

How the results depend on the processing

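The 22 tested probe sets had 0 lower calls under interleukin in all 15 alternatives (limma). Modelled without a trend on signal, limma called 1783 probe sets in all and 10 of the 22 higher with interleukin, 57 and 0 (0 lower) with hydrogen peroxide, and 716 and 1 between the treatments. With probe sets ending in x_at, s_at or a_at left out, 9 remained to test, of which 6 rose with interleukin (2340 called in all), 2 with hydrogen peroxide (749) and 3 between the treatments (1280), an outcome to which the smaller number tested contributes. Under hydrogen peroxide 5 were called higher after 75th percentile centring, and 4 higher and 0 lower of 762 calls with no filter. Between the treatments 3 were higher after quantile normalization and 3 with no filter. The main fit did not pair same-numbered arrays, since the labels do not give whether same-numbered cultures were handled together. Same-numbered arrays did not deviate together in every pair of groups (correlations 0.11, 0.05 and -0.13). The replicate block left 0 lower calls under hydrogen peroxide, ended the call of the brighter H2-T23 probe set there (adjusted p = 0.0520) and gave 18, 8 and 5 higher calls in the 3 comparisons, with 3342, 1170 and 1756 calls in all. The cause of these moves was not tested.

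Leaving out 1 array leaves 1 in its group, which lowers the power to call where that group is compared. The ranges given here also cover leaving out an array of the group not compared, and some upper ends lie above the main fit. The upper ends for hydrogen peroxide came from leaving out an interleukin array. The most higher calls with interleukin came without interleukin array 2. Higher calls then ranged from 10 to 19 with interleukin, 1 to 9 with hydrogen peroxide (lower calls 0 to 1) and 2 to 5 between the treatments. Calls in all ranged from 1563 (without vehicle array 1) to 3599, from 242 (without vehicle array 1) to 1767, and from 852 (without hydrogen peroxide array 2) to 1928. Between the treatments the sign turned for 2 values not called, the dimmer H2-T23 probe set (0.034 after quantile normalization and 0.031 after 75th percentile centring, -0.112 to 0.092 when arrays were left out) and Tapbpl (-0.084 to 0.139 when arrays were left out, -0.046 without hydrogen peroxide array 2). No scaling moved the median of all tested probe sets by over 0.1 in any comparison.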

Other observations

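The 5 probe sets of these genes below the tested range gave values that enter no comparison. Of Tap1, the bright probe set rose with interleukin, while 1448177_at read 312 and 203 with vehicle, 140.0 and 270.0 with hydrogen peroxide, and 134 and 153 with interleukin, a lower signal with interleukin. The Tap1 probe set 1420274_at read 2.0 and 2.7 with vehicle, 8.5 and 10.3 with hydrogen peroxide, and 61.2 and 38.0 with interleukin, and 1449803_x_at read 7.7 and 19.9, 74.5 and 55.5, and 23.3 and 31.5 in that order, highest with hydrogen peroxide. The H2-D1 probe set 1451934_at read 23.8 and 39.7 with vehicle, 45.1 and 5.8 with hydrogen peroxide, and 115 and 137 with interleukin, highest with interleukin. The Tapbpl probe set 1424961_at read between 51.8 and 155.9 on the 6 arrays, with overlapping groups.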
